A study of Mus musculus with 4 samples.

Results

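Sites near the centromeric chromosome ends were the accessible sites of the autosomes whose start lay below 8 Mb in mm10. The rule used position alone and no measured value. It took 2944 of the 80465 autosomal sites, out of 82325 sites in all. Assembled sequence began at base 3000001 on 13 autosomes, at base 3050001 on 4 and at base 3100001 on 2, so that the sites came from at most 5 Mb of each chromosome and from 94.2 Mb of assembled sequence in all.

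Accessibility was assayed in 4 libraries by ATAC-Seq, which uses Tn5 transposase to cut and tag open chromatin. Immortalized mouse embryonic fibroblasts (imMEFs) of C57bl6 background had been made by transfecting primary cells from embryos with a plasmid for SV40 T antigen, which all 4 lines carry. The 2 WT libraries came from HAT1+/+ lines and the 2 KO libraries from lines lacking HAT1 throughout (HAT1−/−), with 1 line per library, so a difference between genotypes cannot be told apart from a difference between these lines. The comparison asks how loss of HAT1, the acetyltransferase that modifies newly synthesized histone H4, changes accessibility. Values are the authors' normalised counts, and fold changes are KO relative to WT on the log2(value + 1) scale.

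Mouse chromosomes are telocentric: the centromere sits at the very start of the chromosome, and its minor satellite and the major satellite of the pericentromeric heterochromatin fill the gap before the assembled sequence. Pericentromeric heterochromatin carries H3 K9me3 and HP1 proteins and clusters into chromocentres in mouse nuclei. The first assembled bases often hold tandem repeats and segmental duplications, in which reads can match more than 1 place, while genes next to them may be as active as elsewhere.

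All 10 fibroblast marker genes had a promoter site, with strongest-site values of 35 to 550 across libraries, as against 6 of 12 markers of other cell types, with values of 9 to 87. The defining haematopoietic genes Ptprc, Cd3e and Spi1 had no promoter site. The Hat1 promoter site had normalised counts of 390 and 384 in WT and 438 and 368 in KO, which overlapped, so this site does not check the genotype. The approximate depth, estimated from the spacing of low values, of reads falling in sites was 9430000 and 11400000 in the WT libraries and 7830000 and 5680000 in the KO libraries, so counting error was larger in both KO libraries. Only 2 members in KO replicate 1 and 2 in KO replicate 2 had a value of 0, and none in WT.

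Some sequences are shown first because the results turn on them. They were read on the + strand of RefSeq GRCm38.p6, the assembly named mm10. The first site of chromosome 11 lay 0.337 kb from the first assembled base and was built of repeats of 117 bases. Bases chr11:3100353-3100586 hold a pair of units, the second in capitals, that were 84.6% identical.
Chromosome 11 edge: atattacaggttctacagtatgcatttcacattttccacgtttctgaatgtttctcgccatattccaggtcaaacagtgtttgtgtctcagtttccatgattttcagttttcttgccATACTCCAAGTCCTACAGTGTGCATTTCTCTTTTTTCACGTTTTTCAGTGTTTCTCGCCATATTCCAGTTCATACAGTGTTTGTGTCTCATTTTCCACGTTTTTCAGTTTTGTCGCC

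A site at the start of chromosome 4 and a site 236 kb from the first assembled base of chromosome 16 were built of a 21-base unit. The units are shown at chr4:3052940-3053065 and chr16:3236161-3236286 with every other unit in capitals.
Chromosome 4 edge: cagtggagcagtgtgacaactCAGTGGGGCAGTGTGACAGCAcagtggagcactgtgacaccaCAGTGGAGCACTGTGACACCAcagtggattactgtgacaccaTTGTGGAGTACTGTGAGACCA
Chromosome 16 edge: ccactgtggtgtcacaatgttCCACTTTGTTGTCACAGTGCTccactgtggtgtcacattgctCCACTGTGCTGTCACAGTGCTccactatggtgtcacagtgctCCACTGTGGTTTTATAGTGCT
Neighbouring units were on average 88.6% identical on chromosome 4 and 85.7% on chromosome 16, and the consensus units of both chromosomes were 100% identical once 1 was turned to the opposite strand and rotated.

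The other sequences belong to 3 of the sites called different between WT and KO by the rule given below. The Gm3468 site of chromosome 14 is a CpG island at a promoter, and the 150 bases nearest its middle that overlap no exon, at chr14:6108431-6108580, held 17 CG dinucleotides, in capitals.
Gm3468: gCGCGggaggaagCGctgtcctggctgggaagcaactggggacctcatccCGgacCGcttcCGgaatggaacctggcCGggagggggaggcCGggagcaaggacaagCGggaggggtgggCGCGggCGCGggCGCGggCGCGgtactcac
At least 17 in the central 150 bases were found at 5.54% of all sites. The Tmem181b-ps site (chr17:6468091-6468240) and an intergenic site near Mir692-1 (chr17:6874494-6874643) are shown with matches to TGANTCA, the AP-1 motif, in capitals. The intergenic site is labelled Mir692-1 to Rsph3b after its nearest gene and nearest coding gene, which lie on the same side of it. AP-1 is the Fos and Jun family of transcription factors, and its motif reads the same on both strands.
Tmem181b-ps: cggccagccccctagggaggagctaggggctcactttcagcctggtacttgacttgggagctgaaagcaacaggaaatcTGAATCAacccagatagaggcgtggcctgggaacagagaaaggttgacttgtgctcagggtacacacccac
Mir692-1 to Rsph3b: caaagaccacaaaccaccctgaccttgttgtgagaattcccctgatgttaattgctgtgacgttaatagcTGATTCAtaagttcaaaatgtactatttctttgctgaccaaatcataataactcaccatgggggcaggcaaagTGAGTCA
Of 10 called sites whose window was scanned for it, 3 held the motif, and the other Tmem181b-ps sites that were called did not. The motif occurred in the central 150 bases of 27.6% of the sites near centromeric ends and of 28.0% of all sites.

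The chromosome ends differed widely in how many sites they held, from 35 on chromosome 14 to 395 on chromosome 19, with a median of 142. Per Mb of assembled sequence, the ends held 31.2 sites and the rest of the autosomes 33.7. The end was denser than the rest of its own chromosome on 7 of 19 autosomes. Chromosome 19 had 81.0 sites per Mb below 8 Mb against 40.8 beyond it, and chromosome 11 had 61.4 against 45.8. The sparsest ends were those of chromosome 14, with 7.0 against 26.3 sites per Mb, chromosome 1, with 7.80 against 30.1, and chromosome 3, with 10.8 against 30.8. Few sites did not mean few genes: 103 protein-coding genes started below 8 Mb on chromosome 14, whose first site lay only at 5961576, while 8 did on chromosome 3 and 15 on chromosome 1.

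**Figure D1:**
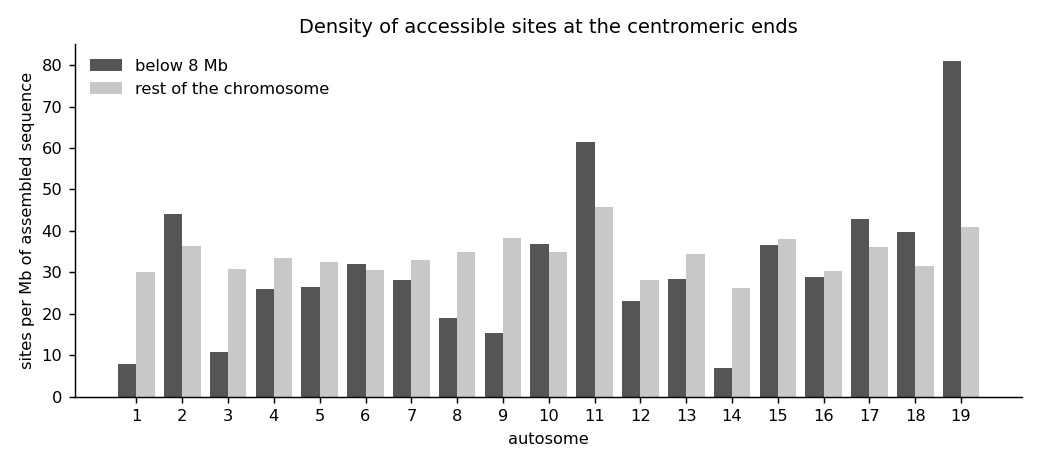
Accessible sites per Mb of assembled sequence (y axis) below 8 Mb and on the rest of each autosome (x axis); each bar is a count of sites over a length and carries no error. Chromosome 19 has the densest end, at 81.0 sites per Mb, and chromosome 14 the sparsest, at 7.0.

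By distance from the 3 Mb mark, site density was 29.8 per Mb in the first Mb, 36.8 in the second, 37.8 in the third, 28.6 in the fourth and 23.1 in the fifth. The median of the sites' mean values was 59.5, 59.3, 60.4, 54.9 and 44.4 normalised counts in the same order. Both were lowest in the fifth Mb, farthest from the centromere. The share of promoter sites, those within 3 kb of a transcription start site (TSS), was 42.1% in the first Mb, 46.6% in the second and 28.9% in the fifth.

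Over all 2944 sites, 39.2% were at promoters, 28.8% in introns and 28.4% between genes, as against 35.2%, 31.2% and 29.8% of the other autosomal sites. Median GC content was 47.5% against 48.2%, and the median of the mean values was 56.5 normalised counts against 52.0. At the opposite chromosome ends, the last 5 Mb of each autosome held 3983 sites, with 40.6% at promoters, a median GC content of 50.5% and a median value of 58.0. Assembled sequence below 8 Mb was 39.8% repeats, against 33.2% in the rest of the autosomes. A near-identical copy elsewhere in the assembly, covering at least 80% of the site at 95% identity or more, was found for 54 sites (1.83%) against 0.533% of the other autosomal sites, and 23 of the 54 lay on chromosome 17. Whether reads of these 54 sites were shared with their copies was not tested.

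The genotypes were close over the chromosome ends as a whole. The median value of the 2944 sites was 54 and 55 normalised counts in WT replicates 1 and 2, and 58 and 56 in KO replicates 1 and 2. The median log2 fold change was 0.06, against 0.01 over all sites, and 0.04 over the last 5 Mb of the autosomes. Without chromosome 19 it was 0.03, and it was -0.01 when the libraries were scaled to equal totals. By KO line, the median difference from the WT mean was 0.10 in KO replicate 1 and 0.02 in KO replicate 2.

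Relative to the rest of the same chromosome, the median log2 level of the end, averaged over the 19 autosomes, was -0.05 in WT replicate 1, -0.01 in WT replicate 2, 0.03 in KO replicate 1 and 0.03 in KO replicate 2. The groups did not overlap, and the KO mean was 0.06 higher. In an exact permutation test over libraries, two-sided, p was 0.333, the smallest value that 2 against 2 libraries can give. Among sites at or above the median signal the difference was -0.01, with the opposite sign. At single ends, both KO lines lay above both WT lines on 3 of 19 autosomes and below them on 0.

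**Figure D2:**
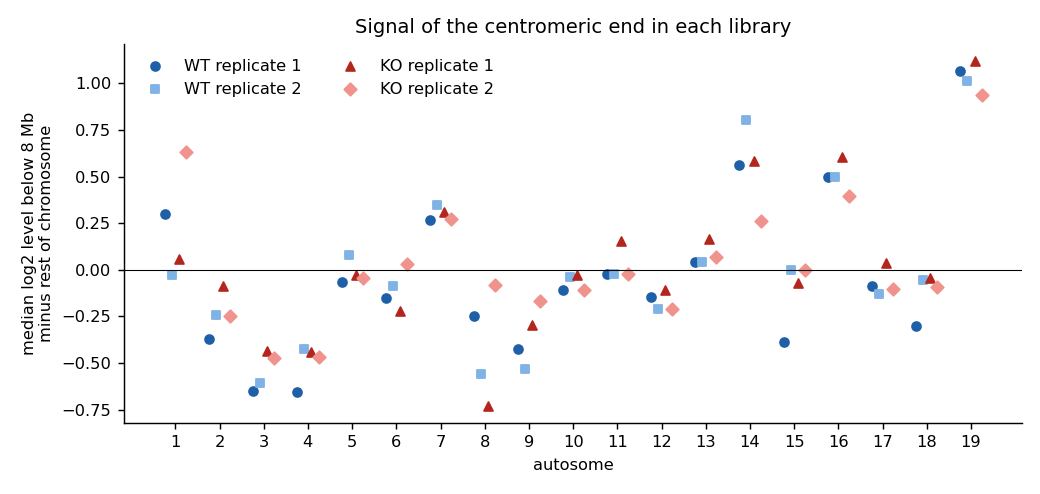
Median log2 level of the sites below 8 Mb minus that of the other sites of the same autosome (y axis), for each autosome (x axis) and library (points, no error bars). Chromosome 19 is high in all 4 libraries, while on chromosomes 1 and 8 libraries of the same genotype lie far apart.

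The sites of each 5 Mb segment were averaged and tested with limma across 490 segments of the autosomes. Of the 19 proximal segments, 0 had an adjusted p under 0.05 and 1 had an unadjusted p under 0.05, against 2.24% of all segments. That segment was the end of chromosome 14, with a log2 fold change of -0.43 (SE 0.13, limma unadjusted p = 0.0101, adjusted p = 1.00). Over the other settings the log2 fold change ran from -0.25, when the values were summed before taking logs (limma unadjusted p = 0.266), to -0.60 without WT replicate 2 (limma unadjusted p = 0.00428). It was -0.26 without WT replicate 1 (limma unadjusted p = 0.116), -0.27 without KO replicate 2 (limma unadjusted p = 0.0629) and -0.59 without KO replicate 1 (limma unadjusted p = 0.00135). The proximal segment of chromosome 14 averaged 35 sites. The first 3 of them had log2 fold changes from -4.49 to -1.39. The next 5 Mb segment of chromosome 14 had a log2 fold change of -0.37 (limma unadjusted p = 0.116). The other proximal segments lay between a log2 fold change of -0.21 on chromosome 3 (SE 0.33) and 0.22 on chromosome 19 (SE 0.23).

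Distance from the gap made little difference. The median log2 fold change was 0.06 in the first Mb, 0.05 in the second, 0.07 in the third, 0.09 in the fourth and 0.07 in the fifth, and without chromosome 19 it was 0.05, 0.02, 0.02, 0.05 and 0.04. The quartiles of the sites ran from -0.16 to 0.27 in the first Mb and from -0.24 to 0.33 in the fifth, so the bins overlapped almost wholly. KO replicate 1 had a median of 0.11 in the first Mb and 0.09 in the fifth, and KO replicate 2 had -0.01 and 0.00.

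**Figure D3:**
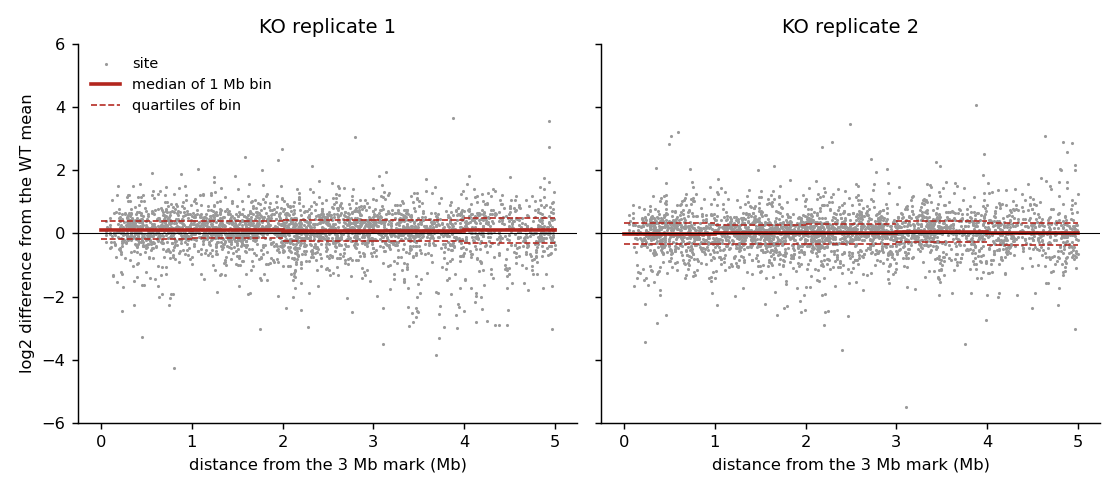
Log2 difference of each site from the WT mean (y axis) in KO replicate 1 and KO replicate 2, by distance from the 3 Mb mark (x axis, Mb). Points are sites, solid lines the medians and dashed lines the quartiles of 1 Mb bins; the medians stay between 0.09 and 0.11 in KO replicate 1 and between -0.01 and 0.06 in KO replicate 2.

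The sites at the first assembled bases were ordered by line and not by genotype. Within 20 kb of the first assembled base lay 9 sites, on chromosomes 2, 4, 6 and 11, and 2 further tandem-repeat sites lay on chromosome 16 at 232 and 236 kb. At all 11, WT replicate 1 had the highest value and WT replicate 2 the lowest, with both KO lines between them. The 11 sites were picked after their values had been seen. Sites between these distances did not all share the order: the first site of chromosome 17, at 102 kb, had 58 and 49 in WT and 38 and 56 in KO. That order held at 4.296% of the other sites near the centromeric ends and at 5.84% of all sites.

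The strongest of them, 1.08 kb into the assembled sequence of chromosome 11, had normalised counts of 763 and 227 in WT and 416 and 505 in KO. The first site of chromosome 11, whose repeat unit is shown above, had 133 and 41 in WT and 73 and 116 in KO. The chromosome 4 site at 3052940, also shown above, had 55 and 20 in WT and 44 and 41 in KO. In each case the gap between the WT lines was larger than that between the genotypes.

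The chromosome 16 site at 3236013 had 155 and 38 in WT and 107 and 111 in KO. The first site of chromosome 2, 0.024 kb from the first base and with no repeat unit found by the rule used here, had 150 and 34 in WT and 76 and 108 in KO. Over the 11 sites WT replicate 1 was 2.47 to 4.76 times WT replicate 2. The log2 fold change between genotypes ran from -0.08 to 0.56, and the smallest limma unadjusted p was 0.377.

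Sequence words of 20 bases were shared by 6 of 45 pairs of these sites on different chromosomes, all of them between chromosomes 4 and 16, and by all pairs within a chromosome. Among tandem-repeat sites outside the chromosome ends, 114 in number, WT replicate 1 was highest and WT replicate 2 lowest at 24.6%. The chromosome ends held 9 tandem-repeat sites by the same rule, of which 7 were among the 11. The others were a site 0.356 kb from the Peg10 TSS (91 and 71 in WT, 85 and 104 in KO) and a site 4.26 kb from Lif (25 and 4 in WT, 27 and 14 in KO).

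**Figure D4:**
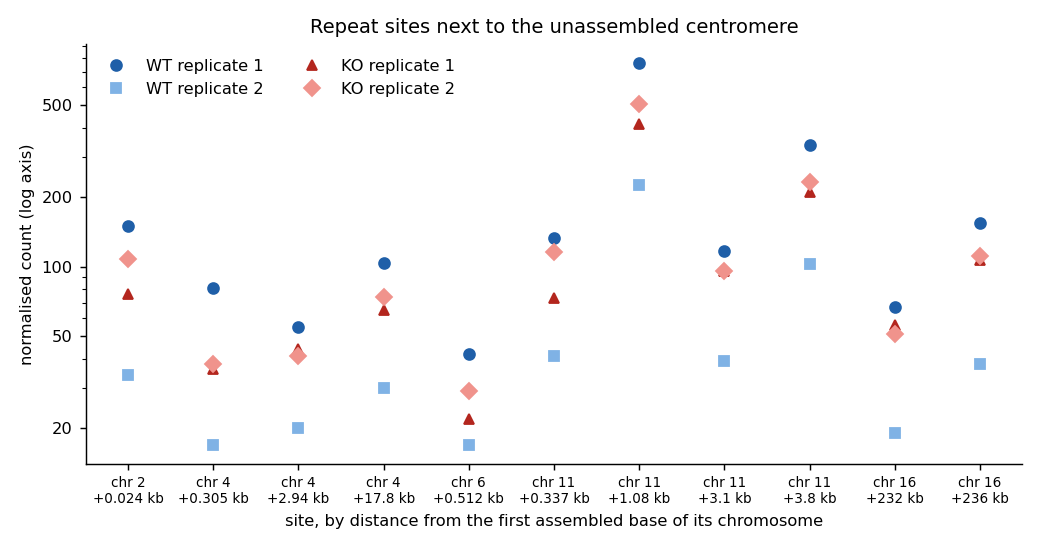
Normalised counts (y axis, log scale) of 11 sites, 1 point per library, labelled by chromosome and distance from the first assembled base (x axis). Within 20 kb of that base lay 9 of them, and the chromosome 16 sites lay at 232 and 236 kb. WT replicate 1 is highest and WT replicate 2 lowest at each site, and both KO lines lie between.

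Sites were called differentially accessible at a limma unadjusted p under 0.01 and a log2 fold change of at least 1 in size. Of the 2944 sites, 7 were called lower in KO, where 0.302% of all sites were, and 4 higher, where 0.0705% of all sites were; the members' shares were 0.238% and 0.136%. No site in the table had an adjusted p under 0.05. Of the 11 calls, 1 was kept without WT replicate 1, 0 without WT replicate 2, 3 without KO replicate 1 and 4 without KO replicate 2, and none changed sign. Both KO values lay below both WT values at 340 sites (11.5%), against 14.3% of all sites, and above them at 500 (16.98%), against 14.6% of all sites. Of these 500, 117 were on chromosome 19. An unadjusted p under 0.05 was found for 107 sites (3.63%), against 3.13% of all sites.

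The largest fall was on chromosome 14. The site at 6108123 to 6108989, over the promoter of the predicted gene Gm3468, had 191 and 167 normalised counts in WT and 15 and 3 in KO. This is a log2 fold change of -4.49 (SE 0.67, limma unadjusted p = 4.5e-04, adjusted p = 1.00). Both KO lines were far below both WT lines. The next site, in an intron near Gm3636 at 6756499, had 120 and 86 in WT and 48 and 8 in KO, and the first site of the chromosome, over the promoter of Gm3248, had 47 and 5 in WT and 5 and 6 in KO. The Gm3248 site had 4 near-identical copies and the Gm3636 site 2, while none was found for the Gm3468 site.

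The remaining 32 sites of that end began at 7.75 Mb and had a median log2 fold change of -0.24. The rest of chromosome 14 had a median of -0.18. Both KO values were below both WT values at 12 of the 32, against 14.3% of all sites.

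On chromosome 17, 3 of the 7 called falls lay within 9.03 kb of each other in the pseudogene Tmem181b-ps. The site at 6467764 to 6468569, 0.742 kb from its TSS, had 144 and 134 in WT and 26 and 35 in KO (log2 fold change -2.17, SE 0.32, limma unadjusted p = 4.5e-04). The site at 6476544 had 157 and 182 in WT and 30 and 57 in KO (log2 fold change -2.00), and that at 6475253 had 68 and 94 in WT and 12 and 29 in KO (-2.04). They belonged to a run of 8 consecutive sites over 98.8 kb, from an intronic site near Dynlt1b to Gm2808. Both KO values lay below both WT values at 8 of 8, against 14.3% of all sites. Dynlt1b and its neighbours Dynlt1a, Dynlt1c and Dynlt1f encode dynein light chains and are a tandem gene family.

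Summed over the run, normalised counts were 545 and 545 in WT and 107 and 199 in KO, and the median log2 difference from WT was -2.41 in KO replicate 1 and -1.14 in KO replicate 2. The run was chosen after its values had been seen. Both KO values lay below both WT values at 0 of the next 10 sites, against 14.3% of all sites. Upstream of the run, the Dynlt1a promoter site had 148 and 145 in WT and 140 and 143 in KO. Downstream, these 10 sites from Dynlt1c to Gm2885 summed to 1863 and 1930 in WT and 1927 and 1528 in KO, with a median log2 fold change of -0.19. A near-identical copy was found for 5 of the 8 sites of the run and for 3 of these 10. Copies were therefore present in both stretches, and their part in the difference was not tested.

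The rises were scattered. The intergenic site at 6874251 to 6874888 of chromosome 17 lay 20.4 kb from the Mir692-1 TSS and 73.4 kb from that of Rsph3b. It had 20 and 1 in WT and 81 and 108 in KO (log2 fold change 3.87, SE 1.06, limma unadjusted p = 0.00987). The WT values were low and apart, so the size of this change is uncertain. The site at 3587818 to 3588385 of chromosome 15 lay 4.33 kb from Ghr, which encodes the growth hormone receptor, and had 120 and 96 in WT and 236 and 200 in KO (log2 fold change 1.01, SE 0.24, limma unadjusted p = 0.00547). The Ghr promoter sites themselves had 191 and 200 in WT and 210 and 230 in KO, and 105 and 101 against 121 and 95.

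A site in an intron of Tiam2, a gene for a Rac exchange factor, at 3466654 of chromosome 17 had 59 and 75 in WT and 155 and 129 in KO (log2 fold change 1.08). An intergenic site of chromosome 9 at 6645249, 311 kb from the nearest coding TSS, that of the cytoplasmic dynein gene Dync2h1, had 38 and 34 in WT and 88 and 111 in KO (1.43). In these and the Ghr site, both KO lines exceeded both WT lines by a margin larger than the gap within either genotype.

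No site of the Tagap genes of chromosome 17, which encode a GTPase-activating protein of T cells, was called, and the sites differed among themselves. A site 0.168 kb from Tagap1 had 45 and 29 in WT and 87 and 89 in KO (log2 fold change 1.26, limma unadjusted p = 0.0116). Sites in exons of Tagap had 48 and 18 in WT and 202 and 56 in KO, and 25 and 1 against 85 and 51. Intronic sites near Tagap had 61 and 101 in WT and 79 and 92 in KO, and 14 and 23 against 16 and 14. The Tagap1 site and the second Tagap site each had a near-identical copy.

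The remaining 3 falls were a pair on chromosome 10 and 1 on chromosome 5. The site at 3236804, 1.77 kb from the TSS of Gm6667 and 30.3 kb from H60c, a ligand of the NKG2D receptor, had 127 and 83 in WT and 31 and 38 in KO (log2 fold change -1.55). Its neighbour at 3228459, the first site of the chromosome, had 193 and 192 in WT and 79 and 17 in KO (-2.35, limma unadjusted p = 0.0117) and was not called. An intronic site at 4001689, with Mthfd1l of mitochondrial folate metabolism the nearest coding gene, had 177 and 131 in WT and 77 and 57 in KO (-1.19). The chromosome 5 site at 4641069, 116 kb from the Wnt receptor gene Fzd1, had 71 and 54 in WT and 16 and 23 in KO (-1.64).

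The domain rule of the study defines a HAT1-dependent accessibility domain (HAD) by the mean log2 fold change over 25 consecutive sites. Stretches where this mean is under -0.58 are joined over gaps of up to 1 Mb. The study listed its domains from primary fibroblasts, while the values here came from the immortalized lines, so the domains below are not the study's own. Run along the autosomes, with no test, the rule gave 153 domains, of which 3 touched the centromeric ends, on chromosomes 7, 10 and 17. They held 30 of the 2944 sites. Only complete windows centred on a site were used, so the first 12 sites of each chromosome had no window mean and could not enter a domain. On chromosome 14 the first window was centred at 7833295, beyond the falls at its first 3 sites. With incomplete windows kept at the chromosome ends, 5 domains touched the centromeric ends. With a pseudocount of 8, or among sites at or above the median signal, 0 domains touched the ends, and leaving out single libraries gave 3 to 8. The lowest window mean at any end was -0.81, on chromosome 7.

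The chromosome 7 domain ran from 6435438 to 7210259 (0.775 Mb) and held 16 sites around the imprinted genes Zim1, Peg3 and Usp29 and the zinc finger genes Zfp773 and Zfp418. Its mean log2 fold change was -1.04, with a mean difference from WT of -2.03 in KO replicate 1 and -0.05 in KO replicate 2. KO replicate 1 lay below both WT lines at 14 of the 16 sites, and KO replicate 2 lay below them at 8 and above them at 7. The strongest site, 1.39 kb from the Peg3 TSS, had 342 and 358 in WT, 34 in KO replicate 1 and 534 in KO replicate 2. Peg3 is expressed from the paternal allele and encodes a zinc finger protein. The Zim1 promoter site had 64 and 81 in WT, 4 in KO replicate 1 and 95 in KO replicate 2. At all 5 promoter sites of Peg3 and Zim1, KO replicate 1 was below and KO replicate 2 above both WT lines, so these sites separate the KO lines and not the genotypes.

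Toward the Usp29 and Zfp773 side both KO lines were low at some sites. The Zfp773 promoter site had 89 and 90 in WT and 12 and 45 in KO (log2 fold change -1.89, limma unadjusted p = 0.0204). An intronic site 10.2 kb from the nearest Usp29 TSS had 26 and 20 in WT and 4 and 8 in KO. The Zfp954 promoter, between these sites, had 229 and 273 in WT and 250 and 286 in KO. No site of the domain was called.

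The chromosome 17 domain, from 6172565 to 6520411, had a mean log2 fold change of -1.14 over 12 sites, -1.42 in KO replicate 1 and -0.85 in KO replicate 2. It took in 7 of the 8 sites of the Tmem181b-ps run, and its 5 other sites, from Tulp4 to Dynlt1a, included the Dynlt1a promoter described above. The chromosome 10 domain consisted of 2 sites at the Plekhg1 promoter over 0.00129 Mb. Its mean log2 fold change was -0.37, above the threshold that its windows passed (lowest window mean -0.64). The first of its sites had 90 and 90 in WT and 63 and 68 in KO. The first window of the chromosome was centred on this site, at 3740196, so the domain could not begin earlier. That window took in the 12 sites before it, among them those at 3228459 (log2 fold change -2.35) and 3236804 (-1.55).

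**Figure D5:**
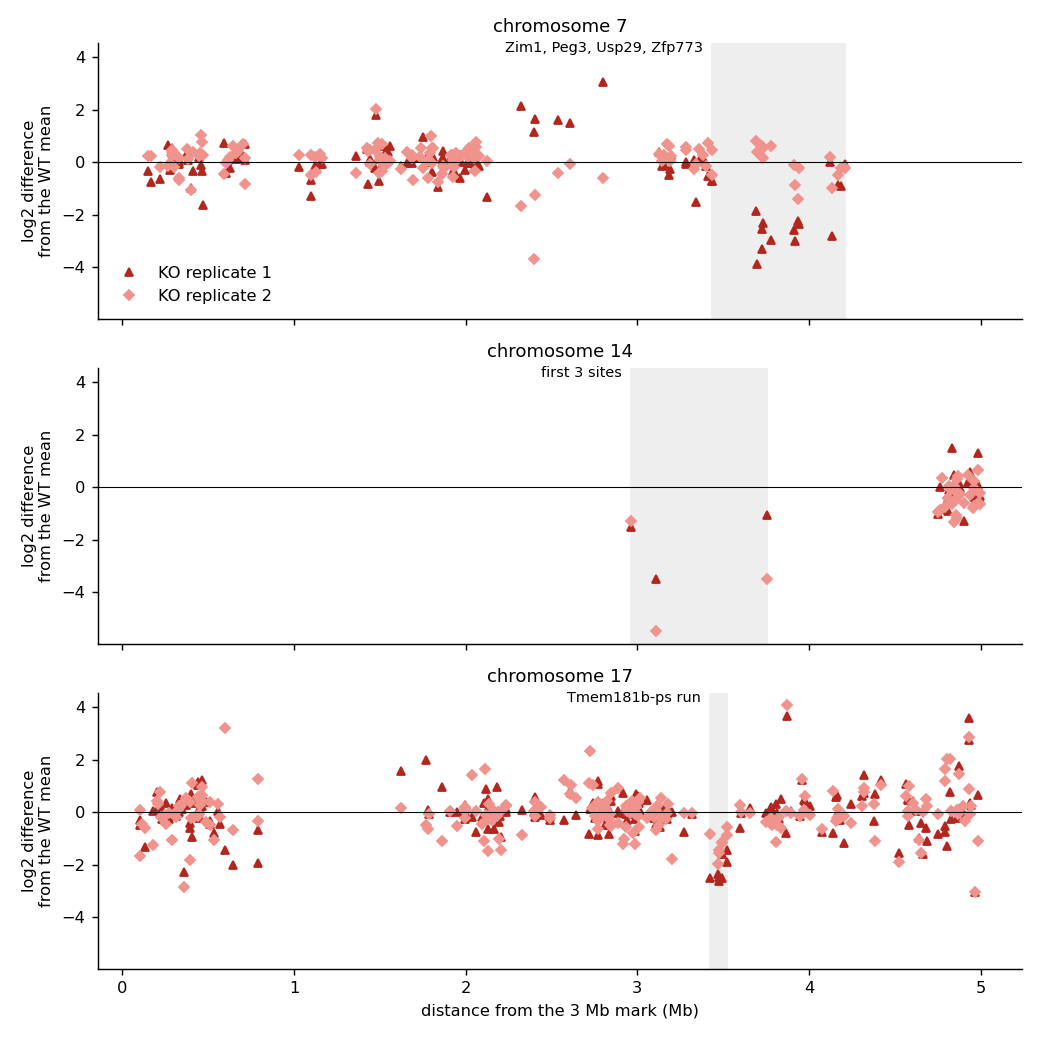
Log2 difference of each site from the WT mean (y axis) in KO replicate 1 and KO replicate 2, by distance from the 3 Mb mark (x axis, Mb), on chromosomes 7, 14 and 17. The shaded stretches are the chromosome 7 domain, with a mean of -2.03 in KO replicate 1 and of -0.05, from sites on both sides of 0, in KO replicate 2, the first 3 sites of chromosome 14, and the run of 8 sites at Tmem181b-ps, low in both lines.

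Other stretches also separated lines within a genotype. On chromosome 7, 6 sites from Nlrp2 to Vmn1r63, among vomeronasal receptor genes, were higher in WT replicate 1 than in WT replicate 2 and higher in KO replicate 1 than in KO replicate 2 at 6 of 6. The strongest, 6.65 kb from Vmn1r58, had 105 and 38 in WT and 202 and 26 in KO. Over the 6 sites the median log2 fold change was 0.42, and the genotypes overlapped.

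At the sparse end of chromosome 1, the 3 sites around Xkr4 below 4 Mb were high in WT replicate 1 and KO replicate 2 and low in the other lines. The one next to Gm37329 had 30 and 4 in WT and 11 and 104 in KO, and the Xkr4 promoter site had 46 and 14 in WT and 6 and 57 in KO. The end as a whole stood 0.30 above the rest of the chromosome in WT replicate 1 and 0.63 in KO replicate 2, against -0.03 in WT replicate 2 and 0.06 in KO replicate 1. The names of these WT and KO lines share a number whose meaning the labels do not give.

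The chromosome 19 end, the richest in sites (395, of which 66.1% were at promoters), had medians of 110 and 104 normalised counts in WT and 151 and 93 in KO. Its median log2 difference from WT was 0.52 in KO replicate 1 and -0.03 in KO replicate 2. The median log2 fold change was 0.25 at the end and 0.23 on the rest of the chromosome, so the difference was not particular to the end. The highest site there lay at Malat1, the abundant nuclear noncoding RNA, with 729 and 900 in WT and 1335 and 911 in KO.

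Promoter sites of genes from 6 lists were examined next. Of their 57 genes, 52 lay under 8 Mb, so the others could have no site here. The lists were drawn up with earlier results of these data known, and 40 of the genes had such a site below 8 Mb, 94 sites in all. None of the 94 was called, where 0.302% of all sites were called lower and 0.0705% higher. Their median log2 fold change was 0.12, against 0.01 over all sites, and both KO values exceeded both WT values at 23 of them, against 14.6% of all sites, and fell short at 9, against 14.3%.

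Of the 11 genes for fibroblast matrix and matrix-degrading proteases, 5 had a site. Col1a2, for a chain of type I collagen, had 6, the strongest with 172 and 233 in WT and 183 and 304 in KO. The sites of the metalloproteinase cluster on chromosome 9 were weak: Mmp3, for stromelysin, had 14 and 20 in WT and 30 and 20 in KO, and Mmp10 had 19 and 14 against 27 and 14. Mmp1b had 17 and 14 against 16 and 38. Mmp27 went the other way, with 20 and 24 in WT and 11 and 15 in KO (log2 fold change -0.73). No promoter site was found for Mmp13, Mmp12, Mmp8, Mmp7, Mmp20 or Mmp1a. The median log2 fold change over the 10 sites of the list was 0.21, and the smallest limma unadjusted p was 0.232.

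The imprinted genes had 17 sites with a median log2 fold change of -0.10. Apart from the Peg3 region, they lay on chromosome 6, where the Peg10 promoter had 42 and 38 in WT and 41 and 42 in KO, and a site near the Sgce TSS had 143 and 129 in WT and 212 and 171 in KO (log2 fold change 0.48, limma unadjusted p = 0.0795). Peg10 and Sgce are transcribed from the paternal allele in opposite directions.

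Among genes of cytokine, hormone and growth factor signalling, 9 of the 10 that lay under 8 Mb had sites, 19 in all, with a median log2 fold change of 0.05. The promoter of Osmr, for the oncostatin M receptor, had 344 and 317 in WT and 392 and 319 in KO, and that of Insr, for the insulin receptor, had 245 and 206 against 252 and 214. Lif, for leukaemia inhibitory factor, had 133 and 91 against 126 and 98. These groups overlapped. A promoter of Esr1, for oestrogen receptor alpha, at 4712448 had 53 and 31 in WT and 25 and 20 in KO (log2 fold change -0.83, limma unadjusted p = 0.111). The other Esr1 promoter sites went both ways. The site at 4610216 had 94 and 77 in WT and 111 and 107 in KO (log2 fold change 0.35). Those at 4612221 and 4709501 had log2 fold changes of -0.26 and 0.26.

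The 5 sites of the nuclear noncoding RNAs Malat1 and Neat1 had a median log2 fold change of 0.44, the highest of the lists, and both KO values exceeded both WT values at 4. A Malat1 site at 5803183 had 317 and 279 in WT and 416 and 406 in KO (log2 fold change 0.47, limma unadjusted p = 0.0166). The chromatin regulators had 26 sites with a median of 0.25 and both KO values above both WT values at 10, where 14.6% of all sites had that order, as for the noncoding RNAs. The site 1.77 kb from Kmt5b, for an H4 K20 methyltransferase, had 94 and 121 in WT and 160 and 232 in KO (0.85, limma unadjusted p = 0.0245). The site over the Kmt5b TSS had 437 and 317 in WT and 490 and 453 in KO (0.34, limma unadjusted p = 0.105). A site 2.17 kb from a Kmt5b TSS had a log2 fold change of 0.02. Both noncoding RNA genes and Kdm2a, Kat5, Kmt5b, Brms1, Men1 and Rcor2 lie on chromosome 19, whose median was 0.25 at this end. Away from it, the main Crebbp promoter site on chromosome 16 had 140 and 116 in WT and 138 and 134 in KO, and a site at Arid1b on chromosome 17 had 197 and 151 against 175 and 194.

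The transcription factors had 17 sites with a median of 0.10. The promoter of Plag1, a zinc finger factor, had 451 and 483 in WT and 462 and 523 in KO. The Klf6 promoter had 454 and 478 against 477 and 659. The Dlx5 promoter, of a homeobox gene of skeletal development, had 63 and 90 in WT and 63 and 38 in KO. No promoter site was found for Sox17 or Hnf4g.

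The strongest site of each end was a promoter on 16 of 19 autosomes. The highest of all lay on chromosome 8 at Gm7461, with 1003 and 993 normalised counts in WT and 1094 and 1630 in KO. On chromosome 11, the Slc35e4 promoter site had 923 and 885 in WT and 1079 and 1041 in KO (log2 fold change 0.23, limma unadjusted p = 0.0135). On chromosome 2, the promoter of Nmt2, for an N-myristoyltransferase, had 712 and 646 in WT and 738 and 796 in KO. On chromosome 13, that of Gdi2, a regulator of Rab GTPases, had 524 and 518 against 509 and 580. The Nmt2 site lay 233 kb and the Gdi2 site 537 kb from the first assembled base.

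The site nearest to the start of assembled sequence lay within 1 kb of it on 4 autosomes, chromosomes 2, 4, 6 and 11. On the others it lay 98.2 kb from the first base on chromosome 12, 102 kb on chromosome 17 and up to 2962 kb on chromosome 14. The chromosome 12 site had 21 and 26 in WT and 28 and 44 in KO, and 2 near-identical copies. The chromosome 9 site, 259 kb in, had 334 and 205 in WT and 398 and 402 in KO (log2 fold change 0.61, limma unadjusted p = 0.0441), and the chromosome 7 site, 150 kb in, had 334 and 280 against 244 and 356. On chromosome 8 it lay in an intron of Insr, with 300 and 269 in WT and 255 and 283 in KO. Across the 19 nearest sites none was called.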

How the data were processed

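ATAC-Seq reads of 2 WT and 2 KO imMEF lines were processed by the authors. The submitters' processing notes name BWA 0.7.12, MACS2 2.1.0 and DESeq2, and the build mm10; the filtering of reads, the handling of reads that match several places and any shift for Tn5 are not given in the sources used here. The deposited table gives, for each of 82325 sites, whole-number normalised counts that the authors had already scaled, treated here as a score and not as raw counts. The authors' own comparison columns (log2 fold change, shrunken fold change, p-value and adjusted p) were not used.

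Values were compared as log2(value + 1) with limma 3.58.1 (R 4.3.3), with an intensity trend, over all 82325 sites, with Benjamini-Hochberg adjustment. The code was tested on simulated data. Each sample is 1 line, and no label says that cultures were repeated, so p-values measure the spread between lines. Depth was approximated from the spacing of low values; intervals for counting error are therefore not given. Near-identical copies were found with minimap2 2.31 in RefSeq GRCm38.p6; summaries used Python 3.11.15, pandas 2.3.3 and scipy 1.17.1. Tandem repeats were sites in which at least 55% of bases matched those at an offset of 10 to 260 bases. The match also had to be under 50% at every shorter offset.

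Sites named were, on each autosome, the site nearest to the assembled start and the highest site, the largest called falls and rises of at least median signal, and promoter sites of the gene lists. The 11 edge sites, the Tmem181b-ps run, the remaining called sites, the Tagap, Vmn1r and domain sites, the start of chromosomes 1 and 14 and the tandem-repeat measure were chosen after their values were seen. The members and lists were chosen with earlier results of these data known. Alternatives were another pseudocount, 2 other scalings, filters on signal and on copies, other limits and windows, and leaving out each library.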

Additional observations from a re-analysis of the deposited data

How the results depend on the processing

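No paired analysis was possible because replicate numbers were given in sample order, and the line names share a number, of unstated meaning, between only 1 WT and 1 KO line. With libraries scaled to equal totals, the median log2 fold change of the 2944 sites was -0.0070 and 2 sites were called higher. Among sites at or above the median signal the median was 0.12, the difference between the ends and the rest of their chromosomes was -0.0067, and 0 domains touched the ends. With an adjusted p under 0.05, 0 sites were called lower and 0 higher. Below 5 Mb, which holds fewer sites, 3 were called lower and 2 higher. With an unadjusted p under 0.05, 1 proximal segment was called in place of 0. The domains touching the ends numbered 7 with windows of 15 sites and 0 with a pseudocount of 8. They numbered 5 with incomplete windows kept at the chromosome ends, a setting chosen after seeing the data, as were those without chromosome 19 and without the edge repeats. Leaving out each library in turn gave 0 to 14 sites called lower, 1 to 4 called higher, a median log2 fold change of 0.018 to 0.096, a difference between ends and rest of 0.04 to 0.08, 0 proximal segments called and 3 to 8 domains. Of the 11 calls, 10 were kept with a pseudocount of 8, 9 with equal totals and 10 with quantile normalization. Apart from the smaller numbers of sites or libraries, the cause was not tested. With 2 lines a genotype, an exact test cannot go below 0.333, and the lower depth of both KO libraries limits what weak sites can show.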

Other observations

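The X chromosome was outside the autosomal rule. Its first site lay at 4899197, and 69 sites started below 8 Mb. Their median value was 66 and 59 normalised counts in WT and 67 and 66 in KO. The median log2 fold change was -0.06, against -0.07 at the other 1775 sites of the chromosome, and 0 sites were called lower or higher.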
